A study of Mus musculus with 10 samples.

Results

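The vascular genes described here are 38 genes that mark the cells of brain vessels and the barrier they form: 25 endothelial genes, 10 genes of the mural cells that wrap the endothelium, and 3 genes of the basement membrane between both. They were taken by symbol from the 47632 gene rows of an RNA sequencing table, and each matched 1 row. The table holds the striatum of 5 hemizygous R6/2 samples and of 5 isogenic wild-type control samples, all at 11 weeks of age. R6/2 mice model Huntington's disease through a transgene with the first exon of human HTT, its CAG repeat expanded, so the mouse's own huntingtin gene is intact. The labels do not tie libraries to animals, so p-values measure the spread between these libraries, which may be partly technical. Values are FPKM, fragments scaled to transcript length and library size, so levels can be compared between genes, though only roughly. Where changes are given, they are differences of log2(FPKM + 1), R6/2 minus control, which understate the change of low genes. Sequencing depth is unknown.

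Brain endothelial cells are joined by tight junctions made of claudins and occludin, carry few vesicles, and rely on transporters for nutrients and on efflux pumps to keep drugs and toxins out. Pericytes sit on capillaries and smooth muscle cells on arterioles; endothelial platelet-derived growth factor recruits both through the receptor PDGFRB, and Wnt and Notch signals help to build and keep the barrier. In bulk tissue, fewer cells of a type and less RNA per cell cannot be told apart.

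Promoter letters were not used to choose the genes. ETS factors, among them ERG, whose gene is in the list, drive much of endothelial transcription. The motifs AGGAAG and CGGAAG, common forms of their sites, were searched for, and other forms of the site were not. In the 250 bases before each RefSeq start, from the RefSeq promoter table of GRCm38.p6, 14 of the 19 endothelial genes with an entry held either motif on either strand in at least 1 window (73.7%), against 42.5% of the 27025 genes in the table. None of the 7 mural genes and neither of the basement membrane genes with an entry held one. Some genes have several start sites; counted by window, 17 of 27 endothelial windows held a motif (63.0%), against 39.2% of all windows. RefSeq starts can differ from those of the gene rows. The Abcb1a window begins at 8566841, while its row begins at 8660077, and the Tjp1 and Tie1 windows reach into their rows. A match is only a match of letters. Promoters are shown for 2 endothelial genes with a motif, Flt1 and Tie1, for Cldn5, the barrier's main claudin gene, which has none in this window, and for the mural gene Rgs5. Sequences run 5′ to 3′ in the direction of transcription, with motif letters in capitals.
Flt1, chr5:147726012-147726261, minus strand: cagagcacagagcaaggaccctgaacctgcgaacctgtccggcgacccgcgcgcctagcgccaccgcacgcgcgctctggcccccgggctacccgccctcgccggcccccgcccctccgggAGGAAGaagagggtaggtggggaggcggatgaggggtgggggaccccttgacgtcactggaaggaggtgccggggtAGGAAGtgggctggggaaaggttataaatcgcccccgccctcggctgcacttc
Tie1, chr4:118489850-118490099, minus strand: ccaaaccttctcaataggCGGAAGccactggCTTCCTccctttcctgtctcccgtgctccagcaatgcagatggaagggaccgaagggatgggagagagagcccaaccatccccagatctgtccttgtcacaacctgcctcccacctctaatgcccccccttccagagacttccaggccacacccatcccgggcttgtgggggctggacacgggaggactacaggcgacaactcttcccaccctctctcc
Cldn5, chr16:18776597-18776846, plus strand: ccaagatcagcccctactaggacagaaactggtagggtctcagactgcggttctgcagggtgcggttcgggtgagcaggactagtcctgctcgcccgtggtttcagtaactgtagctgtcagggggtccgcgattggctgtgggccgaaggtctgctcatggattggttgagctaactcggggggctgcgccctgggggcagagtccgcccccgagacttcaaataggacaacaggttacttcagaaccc
Rgs5, chr1:169655251-169655500, plus strand: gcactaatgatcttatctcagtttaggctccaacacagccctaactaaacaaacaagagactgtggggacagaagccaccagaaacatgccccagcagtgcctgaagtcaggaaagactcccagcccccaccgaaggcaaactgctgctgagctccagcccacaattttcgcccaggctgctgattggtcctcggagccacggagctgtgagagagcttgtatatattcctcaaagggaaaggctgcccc

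No tested vascular gene passed the threshold between R6/2 and control striatum. Of the 38, 32 averaged at least 1 FPKM across 10 libraries and entered a limma fit over 15905 genes, in which 14.1% of all genes were called at a Benjamini-Hochberg adjusted p under 0.05, 5% higher and 9.11% lower in R6/2. Among the 32, 0 were called by limma, and 1 had an unadjusted p under 0.05, where 27.5% of all genes had one. The R6/2 and control values of all 32 overlapped, whereas 13.1% of all tested genes had groups without overlap, 4.5% with R6/2 higher and 8.58% with R6/2 lower. The median log2 change was -0.050 over 23 endothelial genes, with 8 positive and 15 negative, -0.024 over 6 mural genes and 0.16 over 3 basement membrane genes, beside 0.0010 over all genes tested. The split of all calls depended on scaling: 795 genes were higher and 1449 lower as deposited, 1522 and 1136 after protein-coding genes were rescaled to one total, and 1109 and 1277 after quantile normalization; 0 of the 32 genes were called under either. Rescaling moved the median of all genes to 0.093 and turned the endothelial median to 0.034 and the mural median to 0.062.

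A gene that misses the threshold is not thereby shown to be unchanged, so the 95% intervals matter. Their half-width had a median of 0.42 on the log2 scale over the 32 genes, beside 0.39 over all genes tested. For 13 of the 32 the whole interval lay within 0.5 of no change, and for 29 within 1 (40.6% and 90.6%, against 28.2% and 71% of all genes tested). The 3 genes with wider intervals were Abcb1a, Tek and Eng. Replicates spread most for these as well, with within-group SDs of 0.89, 0.65 and 0.62 on the log2 scale, against 0.14 for Abcc9, Slco1a4 and Ocln. The added 1 FPKM shrinks changes, spreads and intervals of low genes, among them Abcc9 and Ocln, which averaged 1.76 and 1.18 FPKM.

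**Figure D1:**
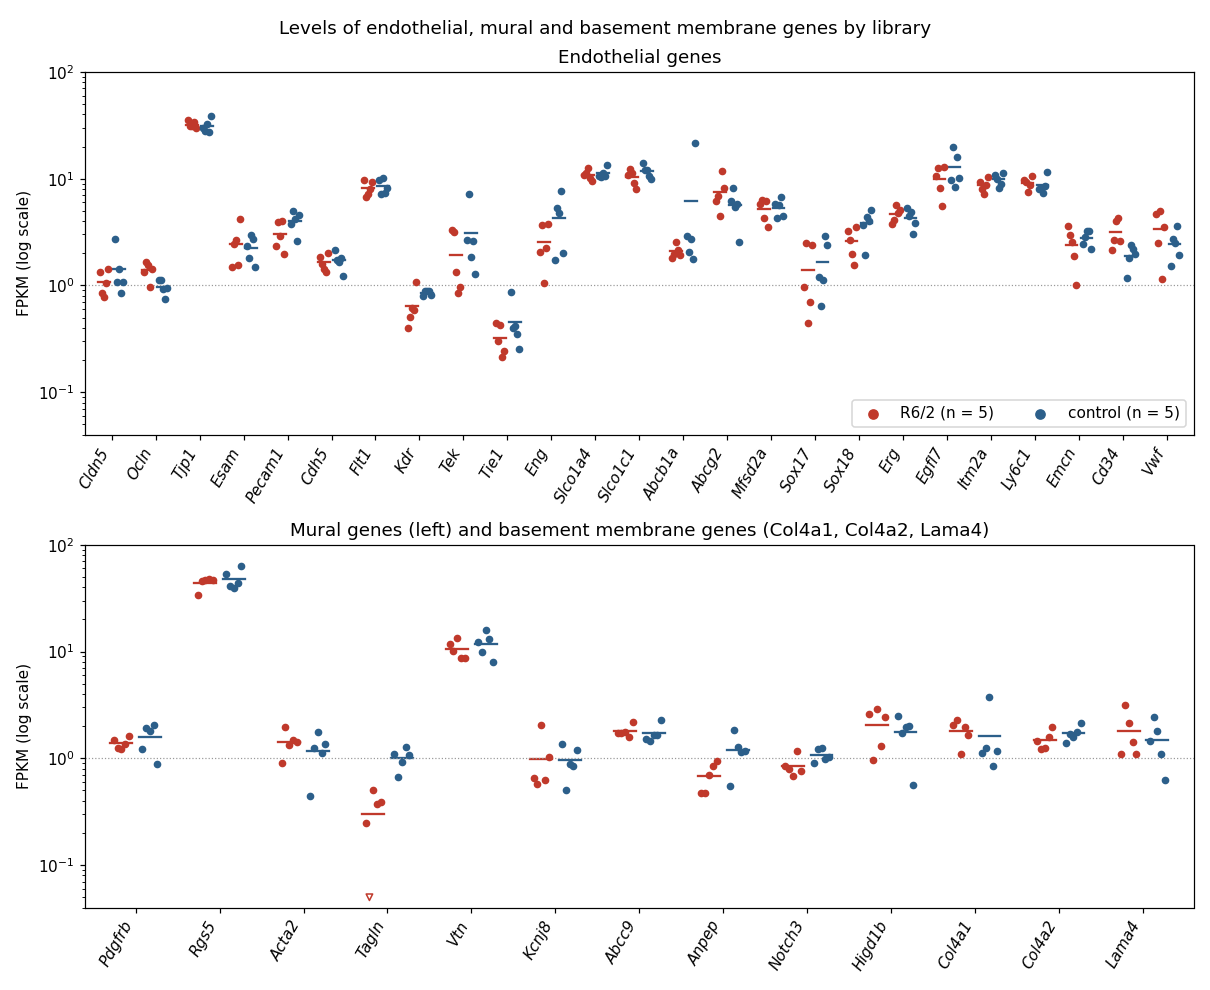
FPKM of the 38 vascular genes in each library on a log axis, R6/2 in red and control in blue; bars are group means, the dotted line is 1 FPKM, and the open triangle is a value listed at 0. The red and blue points overlap for every gene except Tagln.

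Junction genes were at low to moderate levels and overlapped between groups. Cldn5 (ENSMUSG00000041378.1, GRCm38 chromosome 16, 18776847 to 18778262) encodes the claudin that dominates brain endothelial tight junctions. It was at 1.33, 0.845, 0.774, 1.06 and 1.42 FPKM in R6/2 libraries 1 to 5, against 2.71, 1.08, 1.43, 0.847 and 1.09 FPKM in controls 1 to 5 (log2 change -0.18, 95% interval -0.67 to 0.30, limma adjusted p = 0.627). Leaving out 1 library gave a change of -0.27 (without control 4) to -0.021 (without control 1). Control 1 was the highest of the 10 libraries, and the other controls were close to the R6/2 range. Ocln (chromosome 13, 100496507 to 100552718) encodes occludin, and was at 1.34, 1.66, 1.54, 0.958 and 1.44 FPKM in R6/2, against 1.12, 1.12, 0.923, 0.754 and 0.943 FPKM in controls. In Ocln, 4 of the R6/2 values exceeded every control, but R6/2 4 lay inside the control range (log2 change 0.27, interval -0.061 to 0.61, limma adjusted p = 0.283). Tjp1, the ZO-1 scaffold gene, which many cell types besides endothelium use, was the most abundant endothelial gene of the list at 32.1 ± 2.21 FPKM in R6/2 and 31.3 ± 4.71 FPKM in controls (SD, n = 5 each). Its interval, -0.18 to 0.27, was among the narrowest.

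None of the adherens and surface adhesion genes separated the groups. Cdh5, which encodes VE-cadherin, averaged 1.64 ± 0.293 FPKM in R6/2 and 1.72 ± 0.330 FPKM in controls (interval of the log2 change -0.35 to 0.27). Pecam1, the adhesion molecule CD31, was at 2.36, 3.91, 2.90, 3.98 and 1.99 FPKM in R6/2, against 3.73, 4.99, 4.17, 2.58 and 4.58 FPKM in controls, with a log2 change of -0.32 (interval -0.74 to 0.097, limma adjusted p = 0.307). In Pecam1, 2 R6/2 values were below every control and the other 3 lay within the control range. Esam, another junctional adhesion gene, averaged 2.46 ± 1.09 FPKM in R6/2 and 2.25 ± 0.606 FPKM in controls.

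Growth factor receptor genes differed widely in level. Flt1 (chromosome 5, 147561604 to 147726011), the VEGF receptor 1 that also binds placental growth factor, was at 8.22 ± 1.29 FPKM in R6/2 and 8.52 ± 1.36 FPKM in controls (log2 change -0.046, interval -0.33 to 0.24). Kdr, the main signalling VEGF receptor 2 of endothelium, fell under the 1 FPKM filter and has no test: it was at 0.399, 0.507, 0.618, 0.586 and 1.07 FPKM in R6/2, against 0.801, 0.894, 0.887, 0.882 and 0.806 FPKM in controls. R6/2 5 was the highest of all 10 and the other R6/2 libraries were below all controls, which varied little. In the fit without the filter its log2 change was -0.19 (interval -0.45 to 0.061, limma adjusted p = 0.416). The ligand gene Vegfa, named here for its role after its values were seen, was at 16.84, 18, 16.09, 17.95 and 30.33 FPKM in R6/2, against 23.3, 27.9, 23.8, 31.2 and 30.6 FPKM in controls, again with R6/2 5 apart from the other R6/2 libraries (log2 change -0.47, limma adjusted p = 0.1001).

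The angiopoietin receptor gene Tek and the related receptor gene Tie1 were low and variable. Tek, which encodes TIE2, was at 3.28, 3.15, 1.35, 0.843 and 0.960 FPKM in R6/2, against 2.66, 7.24, 1.84, 2.58 and 1.29 FPKM in controls. The log2 change was -0.44 with an interval of -1.29 to 0.40. For Tek, leaving out 1 library gave -0.62 (without control 5) to -0.16 (without control 2, the library at 7.24 FPKM). Tie1, below the filter, was at 0.214 to 0.443 FPKM in R6/2 and 0.254 to 0.874 FPKM in controls. Eng, the endoglin co-receptor for TGF-beta and BMP ligands, was at 2.07, 3.65, 1.06, 2.24 and 3.80 FPKM in R6/2, against 1.72, 5.26, 4.78, 7.60 and 2.01 FPKM in controls (log2 change -0.50, interval -1.30 to 0.31, limma adjusted p = 0.427). Fpgs overlaps its exons on the other strand, and no source used here gives the strand setting.

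Transporter genes had narrow intervals. Slco1a4 (chromosome 6, 141805440 to 141856199), an organic anion transporter, was at 10.8, 11.2, 12.6, 10.1 and 9.48 FPKM in R6/2, against 10.7, 10.4, 11.2, 10.5 and 13.5 FPKM in controls, and had the narrowest interval of the 32 genes, -0.26 to 0.17. Its chromosome 6 neighbour Slco1c1, a thyroxine transporter that astrocytes also express, averaged 10.3 ± 1.75 FPKM in R6/2 and 11.8 ± 1.54 FPKM in controls (interval -0.47 to 0.10). Mfsd2a, the lysophospholipid carrier that brings docosahexaenoic acid into brain and restrains transcytosis, averaged 5.19 ± 1.23 FPKM in R6/2 and 5.36 ± 0.984 FPKM in controls (interval -0.41 to 0.31).

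In the pump genes single libraries stood apart. Abcb1a (chromosome 5, 8660077 to 8748575) encodes P-glycoprotein, and was at 1.82, 1.96, 2.57, 2.16 and 1.94 FPKM in R6/2, against 2.90, 2.04, 2.71, 1.76 and 21.5 FPKM in controls. Control 5 was thus far above the other 9 libraries. The log2 change was -0.66 (interval -1.81 to 0.49, limma adjusted p = 0.463) with this library and -0.11 without it. Abcg2, the breast cancer resistance protein gene, was at 6.12, 6.84, 4.48, 11.8 and 8.09 FPKM in R6/2, against 6.21, 8.10, 5.47, 5.74 and 2.55 FPKM in controls. R6/2 4 was highest and control 5 lowest. For Abcg2 the log2 change was 0.36 (interval -0.26 to 0.98). Leaving out 1 library gave 0.15 (without control 5) to 0.50 (without R6/2 3), with 0.20 without R6/2 4.

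Among transcription factor genes, Erg, at 4.66 ± 0.743 FPKM in R6/2 and 4.32 ± 0.912 FPKM in controls, had a log2 change of 0.099 (interval -0.22 to 0.42). Sox18, which acts in vessel development, was at 3.23, 2.65, 1.99, 1.55 and 3.54 FPKM in R6/2, against 3.72, 1.94, 4.39, 4.03 and 5.12 FPKM in controls (log2 change -0.42, interval -0.93 to 0.082, limma adjusted p = 0.269). For Sox18, 4 controls were above every R6/2 value and control 2 was among the lowest. Sox17, a related arterial factor gene, ranged from 0.441 to 2.50 FPKM in R6/2 and from 0.638 to 2.92 FPKM in controls, with an interval of -0.92 to 0.58.

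Of the remaining endothelial surface and secreted genes, Cd34 (chromosome 1, 194938819 to 194961279) came nearest to a call. This sialomucin gene was at 2.15, 2.65, 4.05, 4.31 and 2.58 FPKM in R6/2, against 1.16, 1.79, 2.39, 2.19 and 1.95 FPKM in controls. For Cd34, 4 R6/2 values were above every control, and R6/2 1 lay within the control range. The log2 change was 0.50 (interval 0.091 to 0.92, limma unadjusted p = 0.0218, adjusted p = 0.105), the only unadjusted p under 0.05 among the 32. Over all settings tried its adjusted p ran from 0.0591 to 0.502. An antisense gene, Gm16897, overlaps its exons.

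The other surface and secreted genes of the endothelial list showed no separation. Itm2a averaged 8.74 ± 1.25 FPKM in R6/2 and 9.83 ± 1.29 FPKM in controls, and Ly6c1, a capillary marker, 9.17 ± 1.17 FPKM in R6/2 and 8.67 ± 1.68 FPKM in controls. Egfl7, a secreted regulator of vessel tubes, averaged 9.95 ± 3.10 FPKM in R6/2 and 12.7 ± 4.83 FPKM in controls (interval -0.93 to 0.30). Exons of Egfl7 overlap Agpat2 on the other strand and the protein-coding gene Gm20532 on the same strand, so its reads are uncertain. Emcn, the endomucin gene of veins and capillaries, averaged 2.41 ± 1.01 FPKM in R6/2 and 2.79 ± 0.480 FPKM in controls. Vwf, which encodes the clotting glycoprotein von Willebrand factor, was at 1.15 to 4.98 FPKM in R6/2 and 1.53 to 3.58 FPKM in controls, with 2 R6/2 libraries (1 and 3) above all controls and R6/2 4 below them.

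**Figure D2:**
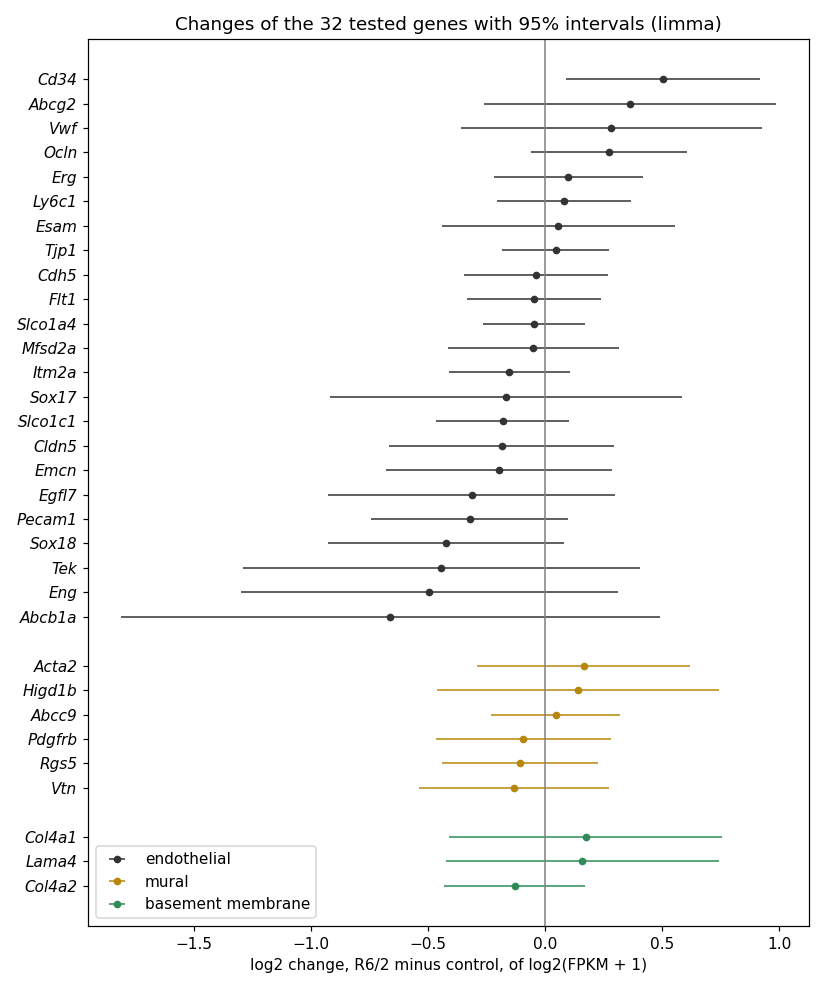
Log2 change, R6/2 minus control, of the 32 tested vascular genes, with 95% intervals from limma, in order of size within the endothelial, mural and basement membrane groups. Every interval but that of Cd34 (0.091 to 0.92) includes 0, and Abcb1a, Tek and Eng have the widest.

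Rgs5 (chromosome 1, 169655501 to 169695813), a G protein regulator used as a pericyte marker, was the most abundant of the 38 genes, at 33.7, 45.6, 47.1, 48.3 and 46.5 FPKM in R6/2, against 52.9, 41.0, 39.7, 43.6 and 63.2 FPKM in controls (log2 change -0.11, interval -0.44 to 0.22). R6/2 1 stood below the other 9 libraries. Vtn, the vitronectin gene, averaged 10.5 ± 2.00 FPKM in R6/2 and 11.8 ± 3.04 FPKM in controls. Pdgfrb, the receptor that keeps pericytes on vessels, averaged 1.39 ± 0.170 FPKM in R6/2 and 1.58 ± 0.507 FPKM in controls (interval -0.47 to 0.28). The gene of its endothelial ligand, Pdgfb, also named for its role, was at 0.314 to 0.437 FPKM in R6/2 and 0.255 to 1.13 FPKM in controls, below the filter.

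Neighbouring genes on chromosome 6 encode the subunits of the vascular ATP-sensitive potassium channel. Abcc9, which encodes the sulfonylurea receptor SUR2 (142587862 to 142702315), was at 1.72, 1.74, 1.76, 1.58 and 2.17 FPKM in R6/2, against 1.53, 1.46, 1.66, 1.67 and 2.28 FPKM in controls, with library 5 highest in each group (interval -0.23 to 0.32). Kcnj8, which encodes the pore Kir6.1 (142564837 to 142571614), was at 0.578 to 2.04 FPKM in R6/2 and 0.508 to 1.36 FPKM in controls and was below the filter. Higd1b, a pericyte marker, ranged from 0.962 to 2.87 FPKM in R6/2 and from 0.561 to 2.51 FPKM in controls.

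Tagln was the one gene of the 38 whose groups did not overlap. It encodes transgelin, an actin-binding protein of smooth muscle (ENSMUSG00000032085.4, chromosome 9, 45929619 to 45936058). It was at 0.245, 0.508, 0.373 and 0.390 FPKM in R6/2 libraries 1, 3, 4 and 5 and listed at 0 in R6/2 2, against 1.10, 0.664, 0.922, 1.27 and 1.07 FPKM in controls. Every R6/2 value was thus below the lowest control, but its mean of 0.655 FPKM kept it out of the main fit. In the fit without a filter, over 29024 genes of which 4.61% were called lower and 8.18% had groups without overlap (5.29% with R6/2 lower), its log2 change was -0.63 (interval -0.93 to -0.33, limma adjusted p = 0.0212), and it was the only one of the 38 called. Its exons overlap the other-strand gene Pcsk7, which was at 1.73 to 2.90 FPKM in R6/2 and 1.95 to 2.44 FPKM in controls.

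The other smooth muscle and pericyte genes overlapped between groups. Acta2, smooth muscle actin, was at 0.914, 1.95, 1.34, 1.47 and 1.42 FPKM in R6/2, against 0.445, 1.25, 1.75, 1.12 and 1.36 FPKM in controls, with a log2 change of 0.16 (interval -0.29 to 0.62). Its values overlapped throughout, unlike those of Tagln. Anpep, aminopeptidase N of pericytes, was at 0.474, 0.477, 0.691, 0.841 and 0.944 FPKM in R6/2, against 0.545, 1.85, 1.29, 1.14 and 1.16 FPKM in controls; 4 controls were above every R6/2 value. Notch3, the mural Notch receptor, was at 0.687 to 1.16 FPKM in R6/2 and 0.910 to 1.25 FPKM in controls. In the fit without a filter their limma adjusted p was 0.289 for Anpep, 0.439 for Notch3 and 0.990 for Kcnj8.

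The basement membrane genes were low. Col4a1 and Col4a2 (chromosome 8, 11198423 to 11312826 and 11312805 to 11449287) encode the chains of the main collagen IV trimer, lie head to head, and overlap at their first exons. Col4a1 was at 2.03, 2.28, 1.09, 1.97 and 1.67 FPKM in R6/2, against 1.12, 1.25, 3.73, 0.846 and 1.18 FPKM in controls. Control 3 was the highest library; the log2 change was 0.17 (interval -0.41 to 0.75) with it and 0.41 without it. Col4a2 averaged 1.49 ± 0.295 FPKM in R6/2 and 1.72 ± 0.286 FPKM in controls (interval -0.43 to 0.17), and control 3 did not stand out, at 1.59 FPKM. Lama4, the laminin alpha 4 chain of vessels, ranged from 1.10 to 3.16 FPKM in R6/2 and from 0.624 to 2.44 FPKM in controls.

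Summed over all 25 endothelial genes, the level was 129 to 143 FPKM in R6/2 and 141 to 163 FPKM in controls. Control 5 had the highest sum, of which Abcb1a gave 21.5 FPKM. The summed FPKM of nuclear protein-coding genes was itself 193200 to 202900 in R6/2 and 211200 to 219400 in controls, without overlap. As a share of it, the endothelial genes took 0.0643 to 0.0740% in R6/2 and 0.0645 to 0.0744% in controls, and the 10 mural genes 0.0282 to 0.0356% in R6/2 and 0.0290 to 0.0368% in controls. Within R6/2, libraries 3 and 4 were lowest for the endothelial genes, with mean deviations of -0.12 and -0.16 on the log2 scale from each gene's average over 10 libraries, while the other 3 lay between 0.0043 and 0.056 and all controls between 0.013 and 0.063. The mural genes did not follow: R6/2 3 was at 0.11 and R6/2 4 at -0.083, and controls ran from -0.14 to 0.14.

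Of 5 red cell genes tested, 2 were called lower, where 9.11% of all genes were called lower. Haemoglobin transcripts as a sum separated the groups. The 4 haemoglobin genes summed to 6.37, 8.99, 17.99, 9.77 and 18.1 FPKM in R6/2, against 26.7, 24.9, 22.3, 34.0 and 37.4 FPKM in controls, without overlap. Hba-a1 fell by 0.96 (limma adjusted p = 0.00511) and Hbb-bs by 1.24 (log2; limma adjusted p = 0.0235, and 0.0512 to 0.0600 without control 1, control 4 or R6/2 1, 2 or 4, 0.0650 with the cortical signal as a covariate and 0.129 with that signal without Lamp5), but each has a near-identical copy, so the single genes are uncertain. Of the 5, Hba-a1 alone had groups without overlap, where 8.58% of all tested genes had R6/2 lower without overlap. Alas2, a haem synthesis gene named after its values were seen, was at 1.19 to 5.25 FPKM in R6/2 and 2.48 to 4.50 FPKM in controls (limma adjusted p = 0.708). No source used here says whether vessels were perfused. The part of blood content in the vascular values was not tested.

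**Figure D3:**
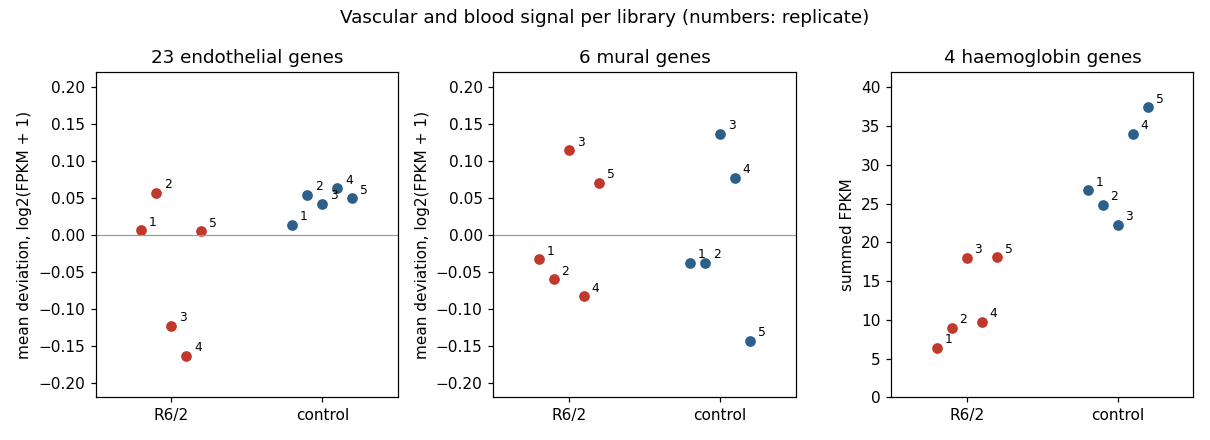
Per library, R6/2 left and control right: mean deviation of the 23 tested endothelial and 6 tested mural genes from each gene's 10-library average, in log2(FPKM + 1), and the summed FPKM of 4 haemoglobin genes. Endothelial and mural means overlap between groups, and haemoglobin is 6.37 to 18.1 FPKM in R6/2 and 22.3 to 37.4 FPKM in controls.

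Lists of further vascular genes gave a few calls, to be read against 5% of all genes called higher and 9.11% called lower. Of 11 other endothelial genes tested, 1 was higher and 1 lower (median -0.037), near the 14.1% of all genes called. Ltbp4, a TGF-beta-binding matrix gene, rose, at 6.64, 5.31, 3.69, 5.65 and 4.33 FPKM in R6/2, against 1.05, 2.81, 2.61, 2.39 and 2.31 FPKM in controls (log2 change 0.93, limma adjusted p = 0.0112). Adgrl4, an endothelial adhesion receptor gene, fell by 0.45 (limma adjusted p = 0.0493), at 10.7 to 13.2 FPKM in R6/2 and 13.9 to 23.3 FPKM in controls; the call was lost (0.0506 to 0.105) on leaving out any library except control 4.

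Of 17 other transporter and junction genes tested, 2 rose and 1 fell (median 0.11), also near that 14.1%. Slc2a1 (GLUT1), the glucose carrier of the barrier that astrocytes express as well, was at 47.3, 39.8, 48.9, 55.6 and 41.6 FPKM in R6/2, against 39.4, 28.2, 31.7, 34.0 and 36.7 FPKM in controls. All R6/2 values were above the highest control (log2 change 0.44, interval 0.18 to 0.70, limma adjusted p = 0.0311), but the call was lost without control 2, 3 or 4 or R6/2 1, 3 or 4 (0.0580 to 0.0700). The cationic amino acid carrier gene Slc7a1 rose by 0.42 (0.0349; 0.0564 to 0.0800 without control 1, 2, 3 or 4 or R6/2 1, 2 or 3, limma adjusted p). Cldn12, a claudin not confined to endothelium, was at 7.34 to 14.3 FPKM in R6/2 and 15.97 to 21.9 FPKM in controls and fell by 0.65 (limma adjusted p = 0.0242; 0.0533 to 0.0580 without control 1, 3 or 4).

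Of 6 tested growth factor partners, all with negative changes, 1 passed the threshold, where 9.11% of all genes were called lower. It was Apln, the apelin gene, which fell by 0.48 (limma adjusted p = 0.0392), at 1.30 to 2.41 FPKM in R6/2 and 2.29 to 3.34 FPKM in controls. It passed on leaving out control 5 or R6/2 4 and not on leaving out any other library (0.0573 to 0.0782). The ligand gene Angpt1, below the filter and named after its values were seen, was at 0.711 to 1.67 FPKM in R6/2 and 0.202 to 1.02 FPKM in controls. Of 11 Wnt pathway genes, 2 fell (median -0.13). Tcf7, a Wnt effector that is also made by other cells, was at 1.25, 1.80, 0.913, 1.14 and 1.51 FPKM in R6/2, against 3.30, 3.18, 5.06, 4.07 and 4.11 FPKM in controls (log2 change -1.09, limma adjusted p = 0.000960), and Tspan12, a Norrin co-receptor, fell by 0.53 (limma adjusted p = 0.0297; 0.0579 to 0.0701 without control 1, 3 or 4 or R6/2 2, 3 or 5). Of 13 Notch and TGF-beta genes tested, 5 had positive and 8 negative changes (median -0.098). Of these 13, 1 was called, lower, near the 9.11% of all genes called lower. It was Hey1, a Notch target, which fell by 1.00, at 9.46 to 14.0 FPKM in R6/2 and 20.5 to 27.5 FPKM in controls (limma adjusted p = 0.000461).

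Of 8 other mural genes tested, 3 fell and none rose (median -0.25), where 9.11% of all genes were called lower. Called or not, 2 of the 8 had positive and 6 had negative changes. The tropomyosin gene Tpm2 was at 3.11, 2.50, 1.18, 1.03 and 1.36 FPKM in R6/2, against 7.99, 5.91, 8.14, 6.20 and 4.10 FPKM in controls (log2 change -1.42, limma adjusted p = 0.00346). The adhesion molecule gene Mcam was at 0.863 to 3.14 FPKM in R6/2 and 3.64 to 5.26 FPKM in controls (log2 change -0.92, limma adjusted p = 0.0140), and its exons overlap an antisense gene. Caldesmon, Cald1, fell by 0.53 (limma adjusted p = 0.0499; it passed on leaving out control 2 or R6/2 5 and on no other library, 0.0540 to 0.111). Myh11, the smooth muscle myosin gene, named after its values were seen, was below the filter, at 0.371 to 0.534 FPKM in R6/2 and 0.571 to 0.735 FPKM in controls, without overlap. Without the filter, 8.18% of 29024 genes had groups without overlap, 5.29% with R6/2 lower. Which cells these transcripts came from cannot be told apart in whole striatum.

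Of 9 other basement membrane genes tested, 2 fell (median -0.22), where 9.11% of all genes were called lower. Sparc, a collagen-binding matrix gene also made by glia, fell by 0.34, at 50.8 to 62.1 FPKM in R6/2 and 68.5 to 77.6 FPKM in controls (limma adjusted p = 0.0193). The fibronectin gene Fn1 fell by 0.62 (limma adjusted p = 0.0331). Fn1 passed on leaving out control 5 or R6/2 1 and on no other library (limma adjusted p 0.0540 to 0.0780). Sparc did not pass after rescaling of protein-coding genes (0.0907) or quantile normalization (0.116). Of the genes of endothelial activation and leakage, 8 of 10 were below the filter, Sele was listed at 0 in all libraries, and the fenestral gene Plvap was at 0.188 to 1.02 FPKM in R6/2 and up to 0.579 FPKM in controls. Ackr1 was called lower (log2 change -1.42, limma adjusted p = 0.0405; 0.0702 to 0.0981 without control 1, 2, 3 or 5 or R6/2 2, 3 or 4), but its exons overlap those of Cadm3 on the same strand, which was at 33.1 to 52.3 FPKM in R6/2 and 56.3 to 70.7 FPKM in controls, so its reads are uncertain.

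Of these 15 further vascular genes named as called, 4 also passed with the cortical neuron signal in the model (Ltbp4, Tcf7, Hey1 and Tpm2). The other 11 did not, at limma adjusted p of 0.0602 for Mcam, 0.0729 for Slc2a1, 0.105 for Sparc, 0.121 for Fn1, 0.122 for Tspan12, 0.130 for Cldn12, 0.169 for Slc7a1, 0.169 for Apln, 0.177 for Ackr1, 0.196 for Cald1 and 0.234 for Adgrl4. After rescaling of protein-coding genes, calls were lost for Ackr1 (0.0504), Tspan12 (0.0651), Fn1 (0.0668), Apln (0.0728), Cald1 (0.101) and Adgrl4 (0.108), besides Sparc. With the replicate block, calls were lost for Slc2a1 (0.0580), Sparc (0.064), Ltbp4 (0.0676), Cldn12 (0.0687), Cald1 (0.0896), Slc7a1 (0.0929), Apln (0.0936), Tspan12 (0.0982) and Adgrl4 (0.125). Without the filter they were lost for Slc7a1 (0.0569), Tspan12 (0.0569), Fn1 (0.0620), Ackr1 (0.0717), Apln (0.0759), Adgrl4 (0.0774) and Cald1 (0.083, limma adjusted p). Adgrl4 and Cald1 were also lost after quantile normalization and with the largest pseudocount. With Lamp5 left out of the cortical signal, a choice made after seeing the data, Ltbp4 (0.111) and Tpm2 (0.0808, limma adjusted p) were lost besides those 11. That signal, a mean of standardized marker levels, ran from 0.17 to 1.52 in R6/2 and from -1.72 to 0.15 in controls, without overlap. With Lamp5 it ran from -0.15 to 1.24 in R6/2 and from -1.35 to 0.26 in controls. With either version of the signal, a lost call thus cannot be told apart from a genotype difference taken up by the covariate.

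**Figure D4:**
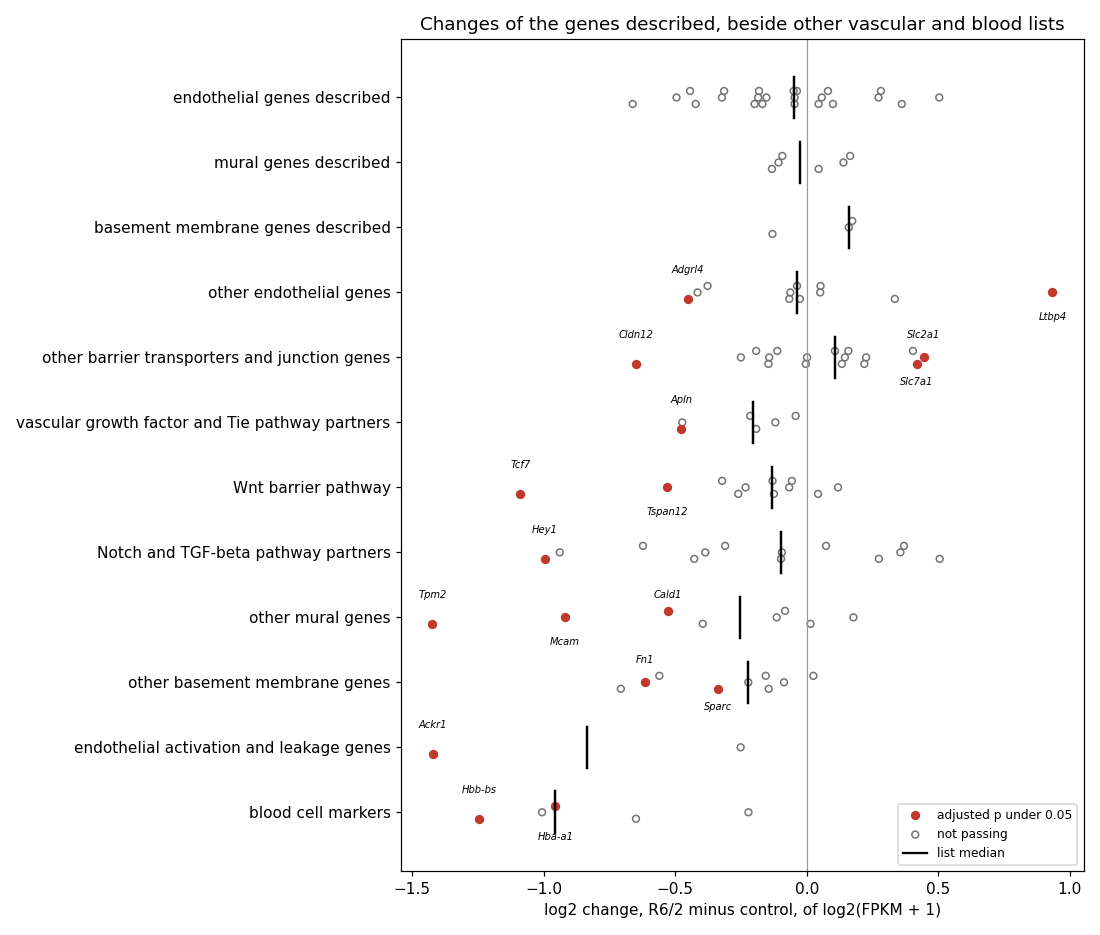
Log2 change, R6/2 minus control, of every tested gene in the endothelial, mural and basement membrane genes described, in 8 lists of further vascular genes and in the blood list; filled points passed limma at an adjusted p under 0.05 and black bars are list medians. The genes described hold no filled point, and Tpm2, Ackr1 and Hbb-bs lie farthest left.

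Markers of other cells gave the setting. Astrocyte endfoot genes, which face the vessel, had 6 of 11 called lower and none higher (median -0.31), among them Gja1 (log2 change -0.79, limma adjusted p = 0.00195), Kcnj10 (-0.62, 0.00278) and Hepacam (-0.38, 0.0181), where 9.11% of all genes were called lower. Hepacam did not pass after rescaling (0.0680), with the replicate block (0.0548), with the cortical covariate (0.0929) or with that covariate without Lamp5 (0.194, limma adjusted p). Kcnj10 did not pass without Lamp5 (0.0632, limma adjusted p). Dmd, the dystrophin gene, named after its values were seen, was the 1 gene of the list with a positive change, at 58.0 to 72.6 FPKM in R6/2 and 32.5 to 92.3 FPKM in controls (log2 change 0.53, limma adjusted p = 0.221). Of 8 microglia markers 1 fell, P2ry12 (log2 change -0.52, limma adjusted p = 0.00454; 0.0931 with the cortical covariate without Lamp5). No vascular fibroblast marker (3 tested) or choroid plexus marker (6 tested) was called by limma, with 0 at an unadjusted p under 0.05 in either list, and the smallest p were those of Igfbp2 and Otx2; all 6 perivascular macrophage markers were below the filter. The choroid plexus sum ran from 31.4 to 470 FPKM in R6/2 and from 15.8 to 556 FPKM in controls, a wide range in both groups whose part in the vascular values was not tested. All 8 spiny neuron markers fell, Penk by 3.41, Pde10a by 2.92 and Drd2 by 2.46 on the log2 scale. Of 6 cortical neuron markers tested, 5 had positive changes and 1 a negative change (median 0.55). The negative one was Lamp5, which fell (log2 change -0.97, limma adjusted p = 0.00599). With the cortical signal in the model 0 of the 32 vascular genes were called, and the endothelial median was 0.015.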

How the data were processed

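Per the labels' protocols, a Qiagen lipid kit gave striatal RNA, NuGEN Ovation amplified it, and Nextera libraries were sequenced on an Illumina HiSeq. The authors deposited 1 table of FPKM values; STAR 2.4.0, Cufflinks and Cuffdiff with GRCm38 are named in the submitters' processing notes, without their roles. No source used here gives the annotation release, the strand setting or a scaling step. The labels also name another file, not used here. FPKM are not counts, so depth stays unknown; an exact 0 can be a failed estimate. Column names matched the sample descriptions, and 0 columns lacked a sample. Of 47632 versioned Ensembl IDs, 47220 matched a GENCODE M21 symbol by stable ID.

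The 15905 genes averaging 1 FPKM or more were fitted with limma 3.58.1 in R 4.3.3 on log2(FPKM + 1), with a mean-variance trend, two-sided, with Benjamini-Hochberg adjustment over all genes tested and a threshold of 0.05; 8 residual degrees of freedom. The script was tested on simulated data. All 38 genes are named; from each further list, the called genes (at most 3, by smallest p) or else the gene with the smallest p are named. One gene that this rule names is not reported here. The genes and lists were chosen with earlier results of these data known. Alternatives were other pseudocounts, filters and scalings, a replicate block, a cortical signal covariate and leaving out each library. The covariate without Lamp5 was chosen after seeing the data. Promoter letters came from the RefSeq table.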

Additional observations from a re-analysis of the deposited data

Results flagged for a closer look

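In 132 groups of 5 libraries, 7 held a library whose gap to its nearest neighbour exceeded Dixon's 95% limit on the log2 scale; chance alone gives about 1 in 20. Control 5 accounts for 3 of them: Abcb1a was at 21.5 FPKM there, against 1.76 to 2.90 in the other controls, Abcc9 at 2.28 FPKM, against 1.46 to 1.67, and Gja1 at 9.99 FPKM, against 14.5 to 15.3. R6/2 1 accounts for 2: Rgs5 was at 33.7 FPKM, against 45.6 to 48.3 in the other R6/2 libraries, and P2ry12 at 12.8 FPKM, against 9.36 to 9.96. Col4a1 was at 3.73 FPKM in control 3, against 0.846 to 1.25 in the other controls. Ltbp4 was at 1.05 FPKM in control 1, against 2.31 to 2.81.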

How the results depend on the processing

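Across 19 alternatives, 0 of the 32 vascular genes tested in the fit with the 1 FPKM filter were called by limma, though a minimum of 5 FPKM left 11 of them to test; without the filter 1 of the 38 was called lower, Tagln. Over all genes, calls higher in R6/2 numbered 1522 with protein-coding genes rescaled, 370 with the replicate block, 338 with the cortical signal as a covariate and 156 with that signal without Lamp5; calls lower numbered 975 with the block, 896 with the covariate and 613 without Lamp5. Replicate numbers did not pair the samples: same-numbered deviations correlated at -0.053 to 0.049, number 5 alone matched its best partner, and the block called 0 vascular genes. Leaving out 1 library gave 576 to 890 genes higher and 1193 to 1518 lower, an endothelial median of -0.11 to -0.0083 and a mural median of -0.037 to 0.020. The vascular genes kept their sign in 557 results and turned in 30, all uncalled, and the cause was not tested. On rescaling the log2 change became 0.034 for Cdh5, 0.057 for Flt1, 0.059 for Slco1a4, 0.047 for Mfsd2a and 0.0056 for Rgs5, and on quantile normalization 0.0033 for Cdh5 and 0.0097 for Rgs5. With the cortical covariate it became 0.051 for Cldn5, 0.018 for Cdh5, 0.15 for Flt1, 0.015 for Mfsd2a and -0.11 for Igfbp2. Without Lamp5 it became 0.19 for Cldn5, 0.060 for Cdh5, 0.25 for Flt1, 0.030 for Mfsd2a, -0.030 for Vwf and -0.28 for Igfbp2. Leaving out 1 library gave -0.0010 to 0.12 for Tjp1, -0.10 to 0.16 for Esam, -0.11 to 0.016 for Cdh5, -0.11 to 0.013 for Flt1, -0.098 to 0.015 for Slco1a4, -0.11 to 0.057 for Mfsd2a, -0.0018 to 0.11 for Abcc9 and -0.053 to 0.28 for Higd1b. FPKM hold no depth, so precision rests on 5 libraries a group, and a gene under 1 FPKM has little behind its value.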
